A study of Mus musculus with 12 samples.

Results

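Pyrimidine nucleotides reach a cell by synthesis from small precursors or by salvage of uridine and cytidine, and 10 genes of these routes were followed here in mouse embryonic fibroblasts (MEFs) with and without mitochondrial DNA (mtDNA). The genes were *Cad*, *Dhodh*, *Umps*, *Uck1*, *Uck2*, *Upp1*, *Cda*, *Ctps*, *Ctps2* and *Slc29a1*. They were taken by symbol from a table of 24453 genes, by a rule that names them for their function. All 10 had counts and were among the 14026 genes tested. RNA was sequenced from 4 lines with 3 libraries each, 12 in all. TM6 is the parental line, MEFs immortalized with SV40 large T antigen from C57BL6/J embryos that carry a neo-flox allele of *Pnpt1* (the gene of PNPase, a mitochondrial RNA-degrading enzyme) on both chromosomes, with no other treatment. The rho0 line is a single-cell clone of TM6 that had first been cultured with 750 ng/mL ditercalinium dichloride dihydrochloride, an agent that binds DNA and removes mtDNA, over 3 weeks. Both knockout clones, PKO-1 and PKO-6, derive from single TM6 cells after an adenovirus delivered Cre, which excises exon 2 of *Pnpt1*, and the study describes them as lacking mtDNA. The medium of every line, TM6 included, held 50 µg/mL uridine, so no library shows these genes without the supplement. The 3 libraries of a line are cultures of the same line or clone. In fits of 4 separate lines the p-values below measure only the spread between these cultures. In fits of 3 groups (TM6, rho0 and pooled PKO) the gap between the PKO clones also counts as spread. This holds there for rho0 against TM6 as well, since the error is estimated over all 12 libraries. The effect of mtDNA loss and the history of a clone cannot be told apart within a line.

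The synthetic route begins with CAD, a fused enzyme that joins bicarbonate, glutamine and aspartate into dihydroorotate. DHODH, in the inner mitochondrial membrane, then oxidizes dihydroorotate to orotate and hands the electrons to ubiquinone, and UMPS turns orotate into UMP. Because ubiquinone is reoxidized by the respiratory chain, cells without respiration cannot run the DHODH step and depend on uridine from the medium. Uridine enters through nucleoside transporters such as ENT1 (*Slc29a1*), and the kinases UCK1 and UCK2 phosphorylate it to UMP. UPP1 works the other way and splits uridine into uracil and ribose phosphate, CDA deaminates cytidine to uridine, and the CTP synthases (*Ctps*, *Ctps2*) make CTP from UTP.

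The libraries held 47164860 to 67991378 counts in total, of which *Rn45s*, the ribosomal RNA precursor, took 12.2% to 19.6%. *Pnpt1*, the targeted gene, held 2832 to 3320 normalized counts in TM6, 5051 to 5510 in rho0, 1191 to 1276 in PKO-1 and 1720 to 2214 in PKO-6, so all 6 PKO libraries lay below TM6, and reads outside the excised exon still count toward it. The 12 fibroblast markers summed to 355751 to 658567 normalized counts in every library, led by *Fn1*, *Vim*, *Col1a1* and *Col1a2*. *Lum* was at 0 in all rho0 libraries and *Thy1* at 0 in all PKO-6 libraries, beside TM6 means of 7.70 and 2.81. *Postn* averaged 756 in TM6, 1.81 in rho0, 1.11 in PKO-1 and 1.56 in PKO-6. By the calling rule given below, 1 of 11 tested was higher and 4 lower in rho0 against TM6. In PKO-1 5 were higher and 3 lower, and in PKO-6 2 and 7. Over all genes 29.3%, 34.3% and 41.3% were called in these comparisons. The 6 leukocyte markers summed to 35.9 to 60.1 normalized counts in PKO-6, led by *Lyz2*, and to at most 4.26 in the other lines. *Cd3e* and *Adgre1* were at 0 in all libraries. In bulk RNA, fewer cells of a type and less RNA per cell cannot be told apart.

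Against TM6, 3 of the members were called in at least 1 comparison. *Upp1* was higher in every library without mtDNA than in TM6, and *Uck1* and *Ctps2* were lower. A difference was called where the log2 fold change exceeded 0.5 in size and the adjusted p fell under 0.01, with edgeR's quasi-likelihood test and Benjamini-Hochberg adjustment over all genes tested. In rho0 against TM6, 2 of 10 members were called, both lower, where 29.3% of all genes tested were called (13.7% higher and 15.6% lower). In PKO against TM6, with both clones pooled, 3 of 10 were called, 1 higher and 2 lower, where 25.7% of all genes were called (13.5% higher and 12.2% lower). Both counts are close to those backgrounds. Fitted as separate lines, 1 member was higher and 2 were lower in PKO-1 against TM6, where 34.3% of all genes were called (16.4% higher and 17.9% lower). In PKO-6 against TM6, 1 was higher and 1 lower, where 41.3% were called (21.9% higher and 19.4% lower). The libraries did not overlap between groups for 5 of 10 members in rho0 against TM6 (72.8% of all genes), for 5 in PKO (47.7%), for 10 in PKO-1 (71.8%) and for 7 in PKO-6 (71.9%). The members' median log2 fold change was -0.12 in rho0 and 0.05 in PKO, beside 0.02 and 0.03 over all genes tested. The rho0 and PKO comparisons share the TM6 libraries as control, so a shared direction is not independent evidence. For 9 of the members the highest and lowest line means lay within 1.91-fold of each other, and for *Upp1* they lay 5.08-fold apart.

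**Figure D1:**
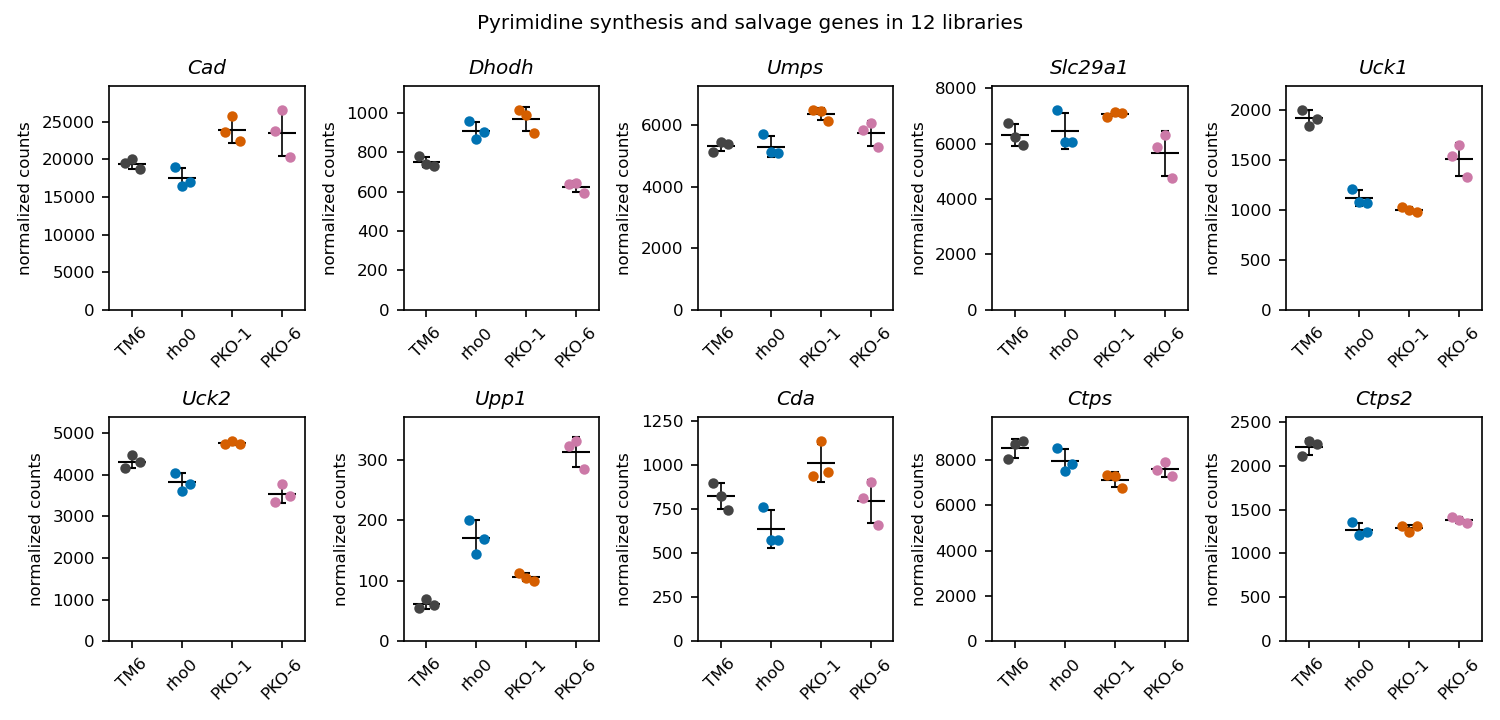
Normalized counts (y axis, from 0) of the 10 genes in each library, with the 4 lines on the x axis. Points are libraries, and bars give the mean and SD of 3 libraries. *Ctps2* and *Uck1* lie below TM6 in all 9 libraries without mtDNA, and *Upp1* lies above it.

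Levels of different genes were compared per length, as TPM (transcript abundance scaled for transcript length and library size). In TM6, *Uck2* had the highest level at 113 ± 3.42 TPM (SD, n = 3), followed by *Slc29a1* at 104 ± 6.74 and *Ctps* at 102 ± 4.87. The libraries of these neighbours overlapped, so their order is not set. *Cad* followed at 84.6 ± 2.64 TPM, *Umps* at 53.0 ± 1.39, *Cda* at 40.0 ± 3.42 and *Uck1* at 32.9 ± 1.58, and none of these neighbours overlapped. At the low end stood *Ctps2* at 12.5 ± 0.433 TPM, *Dhodh* at 10.6 ± 0.410 and *Upp1* at 1.74 ± 0.223. Thus, of the synthetic enzymes, the mitochondrial one had the lowest mRNA level in TM6. It also had the lowest in the other 3 lines, with 12.7 ± 0.381 TPM in rho0, 13.1 ± 0.526 in PKO-1 and 8.54 ± 0.195 in PKO-6.

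*Dhodh*, the gene of the step that needs respiration, was not lower in all lines without mtDNA. It held 780, 739 and 730 normalized counts in TM6 and 956, 866 and 902 in rho0. In PKO-1 it held 1014, 988 and 898, and in PKO-6 640, 644 and 593. The rho0 and PKO-1 libraries therefore all lay above TM6 and the PKO-6 libraries all below it. The log2 fold change was 0.28 ± 0.20 (SE) in rho0 against TM6 (adjusted p = 0.268) and 0.09 ± 0.17 in pooled PKO against TM6 (adjusted p = 0.71), and neither passed. Both errors include the gap between the PKO clones, so they are not on the same footing as those of separate lines. In rho0 *Dhodh* was not called under any of 21 alternative settings. Its log2 fold change there ran from 0.22 to 0.46 and its adjusted p from 0.00299 to 0.455. Where the adjusted p was lowest, only the fold threshold was missed. Fitted as separate lines, PKO-1 differed from TM6 by 0.37 ± 0.07 (adjusted p = 0.000421) and PKO-6 by -0.26 ± 0.07 (adjusted p = 0.00473), both under the fold threshold. *Dhodh* is a single annotated transcript of 9 exons on the minus strand of chromosome 8 (GRCm38, 109593248 to 109608673), and no promoter entry of it was held in the sequence table used.

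*Cad*, which opens the pathway, was not called in any comparison with TM6. Its normalized counts were 19580, 20061 and 18678 in TM6, and 18986, 16511 and 17010 in rho0. In PKO-1 they were 23594, 25760 and 22435, and in PKO-6 23784, 26583 and 20330. All 6 PKO libraries lay above all TM6 and rho0 libraries, while rho0 overlapped TM6. The log2 fold change against TM6 was -0.15 ± 0.10 in rho0 (adjusted p = 0.213) and 0.29 ± 0.09 in PKO (adjusted p = 0.0153). Tested directly, PKO exceeded rho0 by 0.44 ± 0.09 on the log2 scale with an adjusted p of 0.00288, which is past the p threshold and under the fold threshold. The 876 tested genes of chromosome 5, where *Cad* lies, had a median of 0.32 in that comparison, and with chromosome medians removed the difference was 0.12 ± 0.08 (adjusted p = 0.289). *Umps*, which completes UMP, ranged from 5126 to 5439 normalized counts in TM6 and from 5080 to 5697 in rho0, and the log2 difference was -0.004 ± 0.08 (adjusted p = 0.97). It ranged from 6140 to 6485 in PKO-1 and from 5287 to 6076 in PKO-6, and the pooled log2 difference from TM6 was 0.19 ± 0.07 (adjusted p = 0.0482), not called. Hence none of the 3 genes of the synthetic route was called in rho0 or PKO against TM6.

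The transporter that brings uridine in showed little difference. *Slc29a1* ranged from 5941 to 6751 normalized counts in TM6, from 6071 to 7219 in rho0, from 6983 to 7142 in PKO-1 and from 4762 to 6315 in PKO-6. Its log2 fold change was 0.03 ± 0.14 in rho0 (adjusted p = 0.866) and 0.01 ± 0.12 in PKO (adjusted p = 0.945). The standard errors leave room for modest differences in either direction, and the sign in PKO turned to -0.01 with DESeq2's size factors. PKO-1 libraries all lay above those of PKO-6, with a log2 difference of 0.33 ± 0.09 (adjusted p = 0.00854), which is under the fold threshold.

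The kinases that trap uridine as UMP did not move together. *Uck1* held 2002, 1844 and 1913 normalized counts in TM6, 1214, 1085 and 1071 in rho0, 1027, 1000 and 981 in PKO-1, and 1544, 1651 and 1326 in PKO-6. None of the 9 libraries without mtDNA reached the TM6 range, and PKO-6 lay between TM6 and the other lines. *Uck1* was lower by a log2 fold change of -0.77 ± 0.19 in rho0 (adjusted p = 0.00611) and of -0.61 ± 0.16 in PKO (adjusted p = 0.00888), both called. Both p-values sat near the threshold. Leaving out any TM6 or rho0 library ended the rho0 call (adjusted p 0.0113 to 0.0215), and so did a replicate block. The rho0 call held with the 4 lines fitted separately and with only TM6 and rho0 in the fit. In those fits the gap between the PKO clones is not part of the error. Leaving out any TM6 or PKO-1 library, or replicate 3 of PKO-6, ended the PKO call (0.0138 to 0.0292). In the fit of 4 lines, PKO-1 was lower by -0.94 ± 0.08 (adjusted p = 1.62e-07) and was called, whereas PKO-6 was lower by -0.35 ± 0.08 (adjusted p = 0.000974) and stayed under the fold threshold. *Uck1* lies on the minus strand of chromosome 2 (32255002 to 32260105, 7 exons). The 3' end of *Pomt1*, on the opposite strand, overlaps its own by a few bases, and whether the counting used strand is not given in the sources used here.

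*Uck2*, the other uridine-cytidine kinase, ranged from 4161 to 4466 normalized counts in TM6, 3602 to 4045 in rho0, 4731 to 4795 in PKO-1 and 3344 to 3779 in PKO-6. Its log2 fold change was -0.18 ± 0.14 in rho0 (adjusted p = 0.312) and -0.06 ± 0.12 in PKO (adjusted p = 0.722), with the clones on either side of TM6. By TPM, *Uck1* made up 22.5% ± 1.36 of the summed level of *Uck1* and *Uck2* in TM6, 16.1% ± 0.486 in rho0, 12.1% ± 0.236 in PKO-1 and 21.8% ± 1.71 in PKO-6. Compared with TM6 this share was lower in rho0 and PKO-1 and overlapped in PKO-6, where both kinases were lower. The related gene *Uckl1*, whose product resembles these kinases, rose in every line. It held 437, 389 and 440 normalized counts in TM6, 1149, 1076 and 1062 in rho0, 873, 846 and 953 in PKO-1, and 1176, 1156 and 1004 in PKO-6. *Uckl1* was called in rho0 (log2 fold change 1.38 ± 0.13, adjusted p = 9.32e-06) and in PKO (1.25 ± 0.12, adjusted p = 7.42e-06), and its share of the summed TPM of the 3 genes went from 5.10% ± 0.407 in TM6 to 14.6% ± 0.356 in rho0, 10.4% ± 0.641 in PKO-1 and 14.9% ± 1.08 in PKO-6. Together the 3 genes reached 154 ± 1.68 TPM in TM6, 137 ± 3.25 in rho0, 152 ± 6.11 in PKO-1 and 134 ± 5.38 in PKO-6.

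*Upp1*, the enzyme that breaks uridine down, had the largest change of the 10 members. It held 54.5, 70.7 and 59.8 normalized counts in TM6 and 201, 144 and 169 in rho0. In PKO-1 it held 113, 105 and 99.3, and in PKO-6 323, 331 and 285. The 4 lines did not overlap, in the order TM6, PKO-1, rho0 and PKO-6, and the TM6 values rested on 60 to 74 reads per library. In pooled PKO against TM6 the log2 fold change was 1.76 ± 0.46 (adjusted p = 0.00749), a called 3.40-fold rise. That call rested on the pooled fit, in which the gap between the clones counts as error, and it ended when any TM6, rho0 or PKO-6 library was left out (adjusted p 0.0122 to 0.0389). Each clone was called on its own, with 0.78 ± 0.15 for PKO-1 (adjusted p = 0.000532) and 2.34 ± 0.15 for PKO-6 (adjusted p = 5.3e-09), a 5.08-fold rise. In rho0 against TM6 the log2 fold change was 1.47 ± 0.49, with an adjusted p of 0.0268 that missed the threshold. With 4 lines fitted separately the same difference had an adjusted p of 8.57e-07, with only TM6 and rho0 in the fit 5.5e-05, and with DESeq2's Wald test 0.00851.

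*Upp1* has 3 annotated transcripts of 9 exons on the plus strand of chromosome 11, which end together at 9136170 and start at 9118008, 9118103 and 9118507. The transcript with the outermost start carried 74.2% of the gene's TPM in TM6 (65.2% to 85.9% over libraries), 90.3% in rho0, 80.6% in PKO-1 and 77.1% in PKO-6. Its level was 1.10 to 1.46 TPM in TM6 libraries, 4.07 to 4.60 in rho0, 2.01 to 2.55 in PKO-1 and 5.53 to 7.04 in PKO-6, so the higher level of the gene in each line was seen in this transcript too. The assignment of reads among the 3 starts is RSEM's estimate and varied between libraries. The 250 bases before that start are shown with those before the start of *Uck1*, as the members that rose and fell outside chromosome X. Both come from RefSeq on GRCm38.p6, are written 5' to 3' on the gene's strand, and have each CG dinucleotide in capitals.
Upp1, chr11:9117758-9118007 (+): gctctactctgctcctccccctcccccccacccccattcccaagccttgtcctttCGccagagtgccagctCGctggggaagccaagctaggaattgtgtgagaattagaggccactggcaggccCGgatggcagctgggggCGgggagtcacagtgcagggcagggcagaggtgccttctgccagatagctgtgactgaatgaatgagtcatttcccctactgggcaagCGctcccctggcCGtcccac
Uck1, chr2:32260106-32260355 (-): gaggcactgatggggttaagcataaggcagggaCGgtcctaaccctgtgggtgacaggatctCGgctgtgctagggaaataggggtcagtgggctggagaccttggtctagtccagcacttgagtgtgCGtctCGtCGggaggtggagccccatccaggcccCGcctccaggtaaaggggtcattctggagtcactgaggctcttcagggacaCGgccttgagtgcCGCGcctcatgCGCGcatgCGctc
The *Upp1* stretch holds 6 CG dinucleotides and the *Uck1* stretch 12, beside a median of 6 over 32851 promoters. The stretches of *Uck2* and *Cad* hold 21 and 17.

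*Cda*, which feeds cytidine into the uridine pool, ranged from 748 to 900 normalized counts in TM6, from 573 to 764 in rho0, from 938 to 1135 in PKO-1 and from 663 to 908 in PKO-6. Its log2 fold change was -0.37 ± 0.18 in rho0 (adjusted p = 0.103) and 0.13 ± 0.16 in PKO (adjusted p = 0.518), not called. PKO exceeded rho0 by 0.50 ± 0.16 (adjusted p = 0.031), which missed the p threshold. Without replicate 3 of PKO-6, whose value was the lowest of the 6 PKO libraries, the difference was 0.58 with an adjusted p of 0.00756 and would be called.

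**Figure D2:**
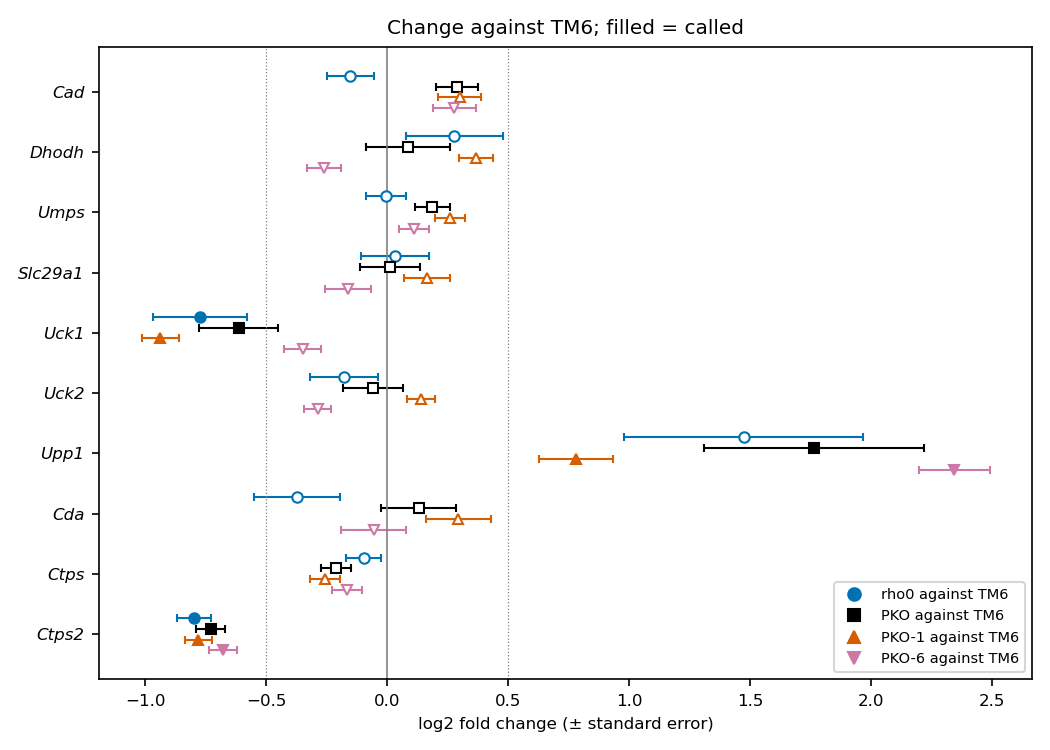
Log2 fold change against TM6 (x axis) with its standard error for each gene, in rho0 (circles), pooled PKO (squares), PKO-1 (upward triangles) and PKO-6 (downward triangles). Filled symbols were called, and dotted lines mark the fold threshold of 0.5. Symbols for *Ctps2* lie between -0.80 and -0.68, and those for *Upp1* between 0.78 and 2.34.

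The CTP synthases differed from each other. *Ctps* ranged from 8019 to 8808 normalized counts in TM6, from 7516 to 8537 in rho0, from 6749 to 7314 in PKO-1 and from 7284 to 7911 in PKO-6. Its log2 fold change was -0.10 ± 0.07 in rho0 (adjusted p = 0.286) and -0.21 ± 0.06 in PKO (adjusted p = 0.0155), not called. *Ctps2* held 2106, 2276 and 2250 normalized counts in TM6, 1357, 1211 and 1245 in rho0, 1313, 1240 and 1309 in PKO-1, and 1419, 1377 and 1346 in PKO-6. All 9 libraries without mtDNA lay close together and below TM6. *Ctps2* was called in all 4 comparisons with TM6, at -0.80 ± 0.07 in rho0 (adjusted p = 5.62e-06), -0.73 ± 0.06 in PKO (adjusted p = 2.36e-06), -0.78 ± 0.06 in PKO-1 (adjusted p = 4.25e-08) and -0.68 ± 0.06 in PKO-6 (adjusted p = 1.07e-07). Its share of the summed TPM of both synthases was 10.9% ± 0.169 in TM6, 7.03% ± 0.041 in rho0, 7.88% ± 0.488 in PKO-1 and 7.93% ± 0.284 in PKO-6. Together both genes reached 115 ± 5.29 TPM in TM6, 101 ± 1.37 in rho0, 88.6 ± 1.65 in PKO-1 and 95.1 ± 3.08 in PKO-6.

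This fall of *Ctps2* was about as large as the median of its chromosome. *Ctps2* lies on the plus strand of chromosome X (162901560 to 163034541), and the 459 genes of that chromosome that were tested had a median log2 fold change of -0.75 in rho0 and -0.78 in PKO against TM6. On the same scale *Ctps2* stood at 48.4% of those genes in rho0 and at 53.8% in PKO, counted from the lowest. With the median of each chromosome taken out of the fit, its log2 fold change was -0.05 ± 0.07 in rho0, 0.05 ± 0.06 in PKO, -0.04 ± 0.06 in PKO-1 and 0.19 ± 0.06 in PKO-6, and the call was lost in each. The X-linked salvage genes *Uprt* and *Hprt* also lay near the chromosome median. *Uprt*, which resembles uracil phosphoribosyltransferases, was lower by -0.66 ± 0.15 in rho0 and -0.98 ± 0.12 in PKO, and *Hprt*, the salvage enzyme of purine bases, by -0.61 ± 0.12 and -0.77 ± 0.10, all called. With chromosome medians removed *Uprt* stood at 0.10 ± 0.15 and -0.20 ± 0.13 and *Hprt* at 0.15 ± 0.12 and 0.01 ± 0.10, none called. *Uck1* and *Upp1* are on chromosomes whose medians were near 0, at -0.04 for chromosome 2 and 0.01 for chromosome 11 in rho0, and -0.08 and -0.002 in PKO. With medians removed *Uck1* was at -0.73 ± 0.19 in rho0, still called, and at -0.54 ± 0.16 in PKO with an adjusted p of 0.0202, not called. *Upp1* in PKO was at 1.77 ± 0.46 (adjusted p = 0.00851), still called.

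**Figure D3:**
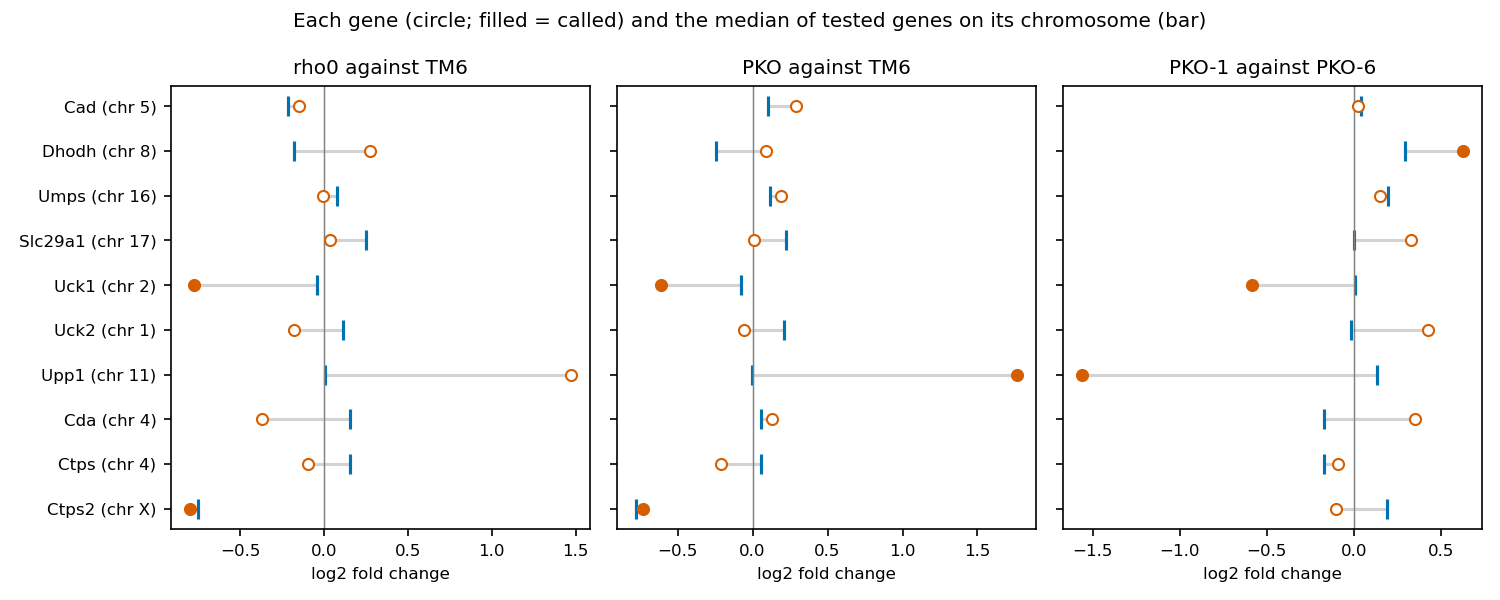
Log2 fold change (x axis) of each gene (circle, filled if called) and the median of the tested genes on its chromosome (bar), in 3 comparisons. *Ctps2* sits on the chromosome X median in the panels against TM6, while *Uck1* and *Upp1* lie away from theirs.

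Whether the drug-treated line and the knockout clones differed was tested directly. In PKO against rho0, 0 of 10 members were called by edgeR, where 10.7% of all genes tested were called (6.33% higher and 4.36% lower in PKO). At an unadjusted p below 0.05 there were 3 of 10 (*Cad*, *Umps* and *Cda*), and DESeq2's Wald test called 0. The share of all genes at that unadjusted p was not counted. By edgeR, 4590 of the 14026 genes tested passed even an adjusted p below 0.05 with any fold change. The 3 members therefore do not stand out. The difference was 0.16 ± 0.17 for *Uck1* (adjusted p = 0.485), 0.29 ± 0.42 for *Upp1* (adjusted p = 0.622) and 0.07 ± 0.06 for *Ctps2* (adjusted p = 0.406) on the log2 scale. *Cad* was the 1 member whose PKO and rho0 libraries did not overlap, where 32% of all genes tested did not. For *Upp1* the PKO-1 libraries lay below rho0 and the PKO-6 libraries above it.

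The clones have the same genotype by their labels, yet 3 of 10 members were called between PKO-1 and PKO-6, where 29.1% of all genes tested were called (11.5% with PKO-1 above PKO-6 and 17.6% below), and 8 did not overlap, where 66.5% of all genes did not. *Dhodh* was higher in PKO-1 by 0.63 ± 0.07 on the log2 scale (adjusted p = 4.05e-06), a 1.54-fold difference. *Uck1* was lower in PKO-1 by a log2 difference of -0.59 ± 0.08 (adjusted p = 1.86e-05). *Upp1* was lower in PKO-1 by -1.56 ± 0.14 (adjusted p = 4.03e-07), a 2.96-fold difference. *Uck2* followed *Dhodh* with 0.43 ± 0.06 (adjusted p = 1.95e-05), under the fold threshold. For *Dhodh*, the 739 tested genes of chromosome 8 had a median of 0.30 between the clones, and with chromosome medians removed the difference was 0.31 ± 0.07 (adjusted p = 0.00187), no longer called. In the same fit *Uck1* stood at -0.60 ± 0.08 and *Upp1* at -1.67 ± 0.14, both still called, and *Cda*, at 0.35 ± 0.13 before (adjusted p = 0.0355), was called at 0.51 ± 0.13 (adjusted p = 0.00503). The direction of *Dhodh* in PKO-6 against TM6 also turned, from -0.26 to 0.17 ± 0.07 (adjusted p = 0.0513), where the chromosome 8 median in that clone was -0.43. Clone and knockout cannot be told apart for any value seen in a single clone.

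Other genes of nucleotide handling and supply were counted in the same way, to be read beside the 29.3% of all genes called in rho0 and the 25.7% called in PKO against TM6. Of 28 other genes of uridine and cytidine handling, 24 were tested, and 5 rose and 2 fell in rho0 while 6 rose and 2 fell in PKO, with medians of -0.08 and 0.04. The largest rise was in *Dpyd*, the enzyme that begins uracil breakdown, the step after UPP1. *Dpyd* held 14.7, 16.2 and 12.96 normalized counts in TM6, 98.8, 99.7 and 102 in rho0, 57.1, 41.5 and 49.6 in PKO-1, and 203, 182 and 184 in PKO-6. All libraries without mtDNA lay above TM6, in the same order of lines as for *Upp1*. Its log2 fold change was 2.76 ± 0.64 in rho0 (adjusted p = 0.00378) and 3.02 ± 0.60 in PKO (adjusted p = 0.00152), both called. *Nme4*, a mitochondrial nucleoside diphosphate kinase, rose by 1.88 ± 0.10 in rho0 and 1.29 ± 0.09 in PKO, and *Nt5e*, the cell-surface enzyme that releases nucleosides from monophosphates, by 1.29 ± 0.27 and 1.33 ± 0.25. Of the later enzymes of uracil breakdown, *Dpys* was at 0 counts in TM6, rho0 and PKO-1 and averaged 0.273 normalized counts in PKO-6. Neither *Dpys* nor *Upb1* passed the filter on low counts.

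Among the other nucleoside transporters, 3 of 6 were tested. *Slc29a3*, a transporter of lysosomes and mitochondria, fell by a log2 fold change of -0.91 ± 0.08 in rho0 and -0.78 ± 0.06 in PKO. *Slc29a2*, the second equilibrative transporter of the plasma membrane, stood at 0.52 ± 0.14 in rho0, called, and at 0.50 ± 0.13 in PKO (adjusted p = 0.00648), just under the fold threshold, and *Slc28a3* passed in neither. With chromosome medians removed *Slc29a2* in rho0 stood at 0.46 ± 0.14 (adjusted p = 0.0203), not called. The mitochondrial carriers of pyrimidine nucleotides, *Slc25a33* and *Slc25a36*, stood at 1.22 ± 0.20 (called) and 0.71 ± 0.23 (adjusted p = 0.0209) in rho0, and at 0.47 ± 0.17 and 0.44 ± 0.20 in PKO, not called. Fitted as separate lines, both were called in PKO-6 against TM6, at 0.74 ± 0.08 (adjusted p = 1.63e-06) for *Slc25a33* and 0.75 ± 0.09 (adjusted p = 4.52e-06) for *Slc25a36*, and neither in PKO-1.

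DHODH shares ubiquinone with other dehydrogenases, of which 9 of 10 were tested, and 1 rose and 2 fell in each comparison. *Prodh*, proline dehydrogenase, rose by 1.47 ± 0.32 in rho0 and 1.57 ± 0.29 in PKO, and *Sdhd*, a subunit of succinate dehydrogenase, fell by a log2 fold change of -0.77 ± 0.10 and -0.50 ± 0.09. With chromosome medians removed *Sdhd* stood at -0.81 ± 0.10 in rho0, still called, and at -0.34 ± 0.09 in PKO, not called. *Chdh*, choline dehydrogenase, averaged 34.9 normalized counts in TM6, 0.369 in rho0 and 0.512 in PKO. Among 11 enzymes that use UTP or CTP, 1 rose and 5 fell in rho0 and 0 rose and 3 fell in PKO. For this and the other lists, 29.3% and 25.7% of all genes tested were called in these comparisons. The 3 that fell in both comparisons were *Pcyt1b* (-3.28 ± 0.39 in rho0 and -4.12 ± 0.31 in PKO), *Pcyt2* (-1.19 ± 0.22 and -1.51 ± 0.18) and *Pcyt1a* (-1.002 ± 0.20 and -0.76 ± 0.17), whose enzymes use CTP in phospholipid synthesis. *Pcyt1b* is X-linked and with chromosome medians removed stood at -2.53 ± 0.38 and -3.34 ± 0.31, still called. *Cds1* and *Cds2*, which also use CTP for phospholipids and are named after their values were seen, were called neither in rho0 nor in pooled PKO. *Cds2* stood at 0.01 ± 0.08 and -0.07 ± 0.07, and *Cds1*, at a mean of 4.26 normalized counts in TM6, was at 0 in PKO-1 and at 32.8 in PKO-6, called in opposite directions in the separate clones. In the supply of glutamine and aspartate, on which CAD draws, 3 of 9 rose and 1 fell in each comparison. *Slc1a5*, a glutamine transporter, rose by 1.75 in rho0 and 1.13 in PKO, *Asns*, asparagine synthetase, by 1.64 and 1.09, and *Got1*, the cytosolic aspartate aminotransferase, by 1.44 and 1.13, while *Slc1a3*, an aspartate and glutamate transporter, fell by a log2 fold change of -4.42 and -2.66. With chromosome medians removed *Asns* in PKO stood at 0.92 ± 0.28 (adjusted p = 0.0197), not called.

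**Figure D4:**
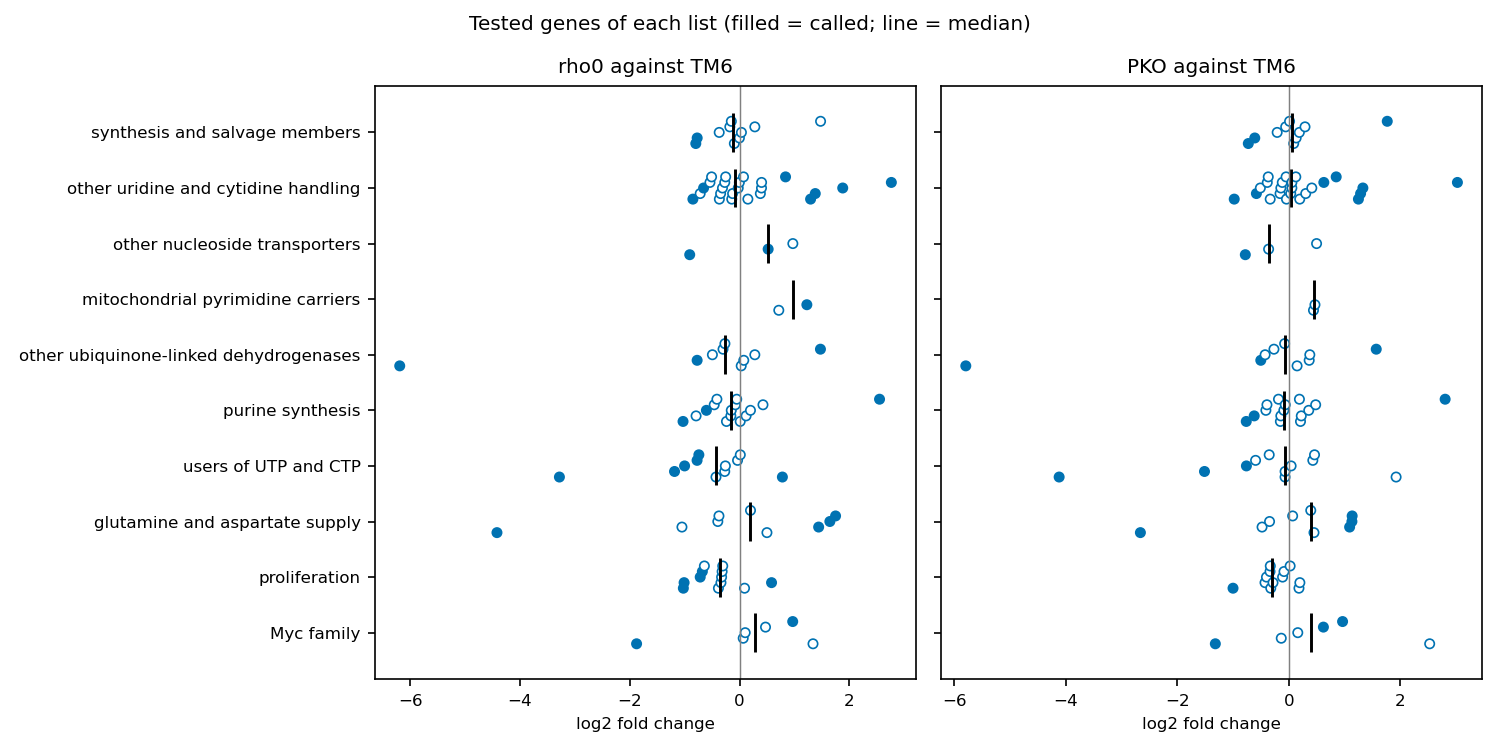
Log2 fold change (x axis) of each tested gene in the 10 synthesis and salvage members and in 9 related lists (rows), in rho0 and in PKO against TM6. Filled points were called and the black line is the list's median. The members cluster near 0 apart from *Upp1*, *Uck1* and *Ctps2*.

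Purine synthesis, the parallel route to the other nucleotides, had 15 genes tested, of which 1 rose and 2 fell in each comparison. The rise was *Adssl1*, an adenylosuccinate synthase (2.55 in rho0 and 2.80 in PKO). The falls were X-linked, *Prps2* (-1.03) and *Hprt* in rho0 and *Prps1* (-0.62) and *Hprt* in PKO, and with chromosome medians removed they stood at -0.28, 0.15, 0.15 and 0.01, not called. Of 12 proliferation genes, 1 rose and 4 fell in rho0, and 0 rose and 1 fell in pooled PKO, beside 29.3% and 25.7% of all genes called. Fitted as separate lines, 0 rose and 1 fell in PKO-1 against TM6, and 0 rose and 6 fell in PKO-6. Over all genes 34.3% and 41.3% were called there. Between the clones, 5 were higher in PKO-1 and 0 lower, beside 29.1% of all genes called. In rho0 *Ccna2* (-1.02), *Cdk1* (-1.01), *Mcm5* (-0.72) and *Ccnb1* (-0.68) fell, and in PKO *Mcm5* fell (-1.003). With chromosome medians removed *Mcm5* stood at -0.54 in rho0 (adjusted p = 0.0326), not called, and at -0.76 in PKO, still called. How far the proliferation genes move with the levels of the members was not tested. *Myc*, a transcription factor known to drive *Cad* and other nucleotide synthesis genes, rose by 0.97 ± 0.11 in rho0 and 0.62 ± 0.10 in PKO, and *Mxd4*, an antagonist in its network, fell by a log2 fold change of -1.88 ± 0.25 and -1.32 ± 0.20. *Mxi1*, another antagonist, stood at 0.47 ± 0.06 in rho0, under the fold threshold, and rose by 0.96 ± 0.06 in PKO. *Max*, *Mxd1* and *Mycl* were called neither in rho0 nor in pooled PKO. Yet *Mycl* went opposite ways between clones, with means of 29.9 normalized counts for TM6, 75.6 for rho0, 2.52 for PKO-1 and 342 for PKO-6. Fitted by line with chromosome medians removed, *Mycl* was called at -3.45 ± 0.38 for PKO-1 and 3.40 ± 0.20 for PKO-6. Mean *Myc* was 5885 normalized counts for TM6, 11498 for rho0, 8074 for PKO-1 and 10000 for PKO-6. The E-box CACGTG, which MYC binds and which reads the same on both strands, was found in 7.2% of 32851 RefSeq promoters of 300 bases (8.1% of 27025 genes). Of the 9 members with a promoter entry, 1 held it, *Slc29a1* at 1 of its starts, 75 bases before the start. The letters were not found in the window of *Cad*, which says nothing about sites beyond it.

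The genes whose pattern across the 12 libraries was most like that of a member are given as a description, since the libraries fall into lines and share their depth. For *Upp1* these were *B2m* (Pearson's r = 0.992 of log2 CPM, counts scaled to library size), *Lmo4* (0.991) and *Cmtm3* (0.988), and *B2m*, the light chain of MHC class I, averaged 8466 normalized counts in TM6, 10890 in PKO-1, 15120 in rho0 and 20880 in PKO-6. For *Dhodh* they were *Taf5l* (0.982), *Kptn* (0.979) and *Mb21d2* (0.978), of which *Taf5l* is on chromosome 8 as well. For *Cad* they were *Ppil1* (0.975), *Prkab1* (0.966) and *Slc35e4* (0.964).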

How the data were processed

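RNA-seq of 12 libraries was analysed. The authors depleted ribosomal RNA, made strand-specific libraries, merged technical duplicates, and estimated counts with RSEM 1.2.25 and bowtie2 against mm10 (GRCm38) RefSeq transcripts. The deposited gene table holds these expected counts (estimated counts, not normalized, 12.5% of values with decimals), which were rounded to whole numbers. The deposited transcript values include TPM made by the authors, used for levels and shares.

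edgeR 4.0.16 (R 4.3.3) with filterByExpr (minimum count 10), TMM scaling and the quasi-likelihood test was fitted over all 12 libraries in 3 groups (TM6, rho0, PKO) or in 4 lines, with Benjamini-Hochberg adjustment over 14026 genes. Normalized counts are counts divided by the scaled library size relative to the mean library. The standard error is the log2 fold change divided by the square root of F. Alternatives were DESeq2 1.42.0, its size factors, other filters and thresholds, the compared groups alone, separate lines, chromosome medians removed, a replicate block and the omission of each library. The members and lists were chosen with earlier results of these data known. All members are named, and of the other lists at most the 4 called genes with the largest change (in each comparison), all genes of lists of 8 or fewer, and X-linked genes, *Uckl1*, *Dpys*, *Upb1*, *Cds1* and *Cds2* picked after their values were seen. The single cell type markers were also picked after their values were seen. mtDNA-encoded RNA was not analysed here, and 1 marker gene is not reported here.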

Additional observations from a re-analysis of the deposited data

Results flagged for a closer look

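The PKO clones, which carry the same labelled genotype, differed in 3 members by edgeR's quasi-likelihood test of PKO-1 against PKO-6. *Dhodh* differed by a log2 value of 0.63 (adjusted p = 4.05e-06), *Uck1* by -0.59 (adjusted p = 1.86e-05) and *Upp1* by -1.56 (adjusted p = 4.03e-07). In each, all 3 PKO-1 libraries lay on the same side of all 3 PKO-6 libraries, and 66.5% of all genes tested were likewise free of overlap between the clones. By Dixon's rule (largest gap at an end over the range), none of the 10 members had a library that stood apart among the 6 PKO libraries. Where the clones differ, their gap widens the range, so the rule could miss a library that deviates within a clone.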

How the results depend on the processing

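Every member's direction and call was recomputed under 21 alternatives for each comparison. Members called in rho0 against TM6 (2) fell to 1 with the replicate block, 1 with chromosome medians removed and 0 at an absolute log2 fold change above 1. Members called in PKO against TM6 (3) fell to 1 in the replicate block, 1 with the compared groups alone, 1 with chromosome medians removed and 1 at a log2 fold change above 1, and rose to 6 at an adjusted p below 0.05 with any fold. That threshold gave 2 in PKO against rho0, 8 in PKO-1 and 7 in PKO-6 against TM6 and 7 between clones, and a log2 fold change above 1 gave 0, 1 and 1 in the last 3, while removing chromosome medians left 1 in PKO-6. Leaving out each library gave 1 to 2 members in rho0, 1 to 2 in PKO and 0 to 1 in PKO against rho0 (1 without PKO-6 replicate 3, *Cda*), and no change elsewhere. Over all lines same-numbered libraries did not consistently deviate together (correlations -0.385 to 0.25, 10 of 18 pairs over 0.1, 5 of 12 libraries closest to their own number). TM6 with PKO-6 was the exception, with 0.209 to 0.25 in its 3 pairs, and there the replicate block left 2 members called, as without it.

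Signs turned for small differences. *Slc29a1* in PKO was -0.0085 with DESeq2's size factors, -0.0088 with its Wald test and -0.0009 without a filter. With chromosome medians removed the log2 value was 0.063 for *Cad*, -0.22 for *Slc29a1* in rho0, 0.049 for *Ctps2* and -0.21 for *Slc29a1* in PKO, 0.011 for *Slc29a1* in PKO against rho0, -0.044 for *Uck2* and -0.034 for *Slc29a1* in PKO-1, 0.17 for *Dhodh* and 0.19 for *Ctps2* in PKO-6, and -0.0068 for *Cad*, -0.024 for *Umps* and 0.070 for *Ctps* between the clones. Over omitted libraries *Slc29a1* ranged from -0.0711 to 0.0622 in rho0, -0.0305 to 0.0842 in PKO and -0.0745 to 0.0510 in PKO against rho0, *Umps* from -0.0751 to 0.0095 in rho0, *Cad* from -0.0727 to 0.1209 between the clones and *Cda* from -0.1953 to 0.0584 in PKO-6. Genes called over the whole table numbered 4111, 3607, 1500, 4810, 5799 and 4087 in the order rho0, PKO, PKO against rho0, PKO-1, PKO-6 and between clones, 7168, 6759, 4590, 9038, 9829 and 8611 at an adjusted p below 0.05, and 2042, 1788, 667, 2274, 3038 and 1950 at a log2 fold change above 1. PKO against rho0 gave 853 and 841 without rho0 replicates 2 and 3, and 3330 with lines fitted separately. Beyond what each alternative's construction shows, the cause was not tested.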

Other observations

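Of the members with several annotated transcripts, *Cad* and *Slc29a1* had the same leading transcript in every line, and *Ctps2* did not. For *Cad*, 1 of 3 transcripts carried 98.3% to 99.5% of the gene's TPM as a mean over the libraries of a line. For *Slc29a1*, the leading transcript carried 51.6% in TM6, 56.3% in rho0, 51.4% in PKO-1 and 58.6% in PKO-6, and the next 35.1%, 38.4%, 40.1% and 37.8%. For *Ctps2*, the leading pair carried 51.7% and 44.1% in TM6, 40.7% and 55.7% in rho0, 41.2% and 53.5% in PKO-1, and 48.5% and 44.3% in PKO-6, so the larger of the pair was a different transcript in rho0 and PKO-1. These shares are RSEM estimates, and no test was run on them.

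Markers of cell types other than fibroblasts were summed per library as a check of the label. The 6 epithelial markers summed to 254 to 276 normalized counts in TM6, 409 to 471 in rho0, 815 to 842 in PKO-1 and 107 to 136 in PKO-6, with *Krt5* at 0 in all lines. The 4 endothelial markers summed to 44.9 to 86.8 in TM6, 20.3 to 32.1 in rho0, 27.9 to 55.9 in PKO-1 and 158 to 177 in PKO-6. The 3 muscle markers, with *Myog* at 0 in all lines, summed to at most 54.8. The 4 neural markers, led by *Nes*, summed to 7447 to 8422 in TM6, 3534 to 3948 in rho0, 5085 to 5235 in PKO-1 and 6725 to 7517 in PKO-6. Their part in the differences of the members was not tested.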
